A study of Mus musculus with 18 samples.

Results

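The 37 genes of the mouse mitochondrial genome and the nuclear gene Lars2 were described in RNA sequencing libraries from cultured bone marrow macrophages. The 37 genes are those that the deposited table places on chromosome MT, and they comprise 13 mRNA genes, 2 rRNA genes and 22 tRNA genes. With Lars2 they make 38 of the 54532 genes in the table, and 26 of the 38 passed the filter on low counts, which kept 14684 genes in all. Cells came from the tibial marrow of mice aged 2 to 3 months whose Smad1 alleles were flanked by loxP sites (Smad1 fl/fl, called floxed-labelled here) or that carried the LyzM-Cre driver in addition (MyS1KO, called knockout-labelled). LyzM-Cre is inserted in Lyz2, the lysozyme gene of myeloid cells, so the deletion is meant for macrophages and neutrophils. Both labels were cultured with CSF-1 (12 ng/ml for 24 h, then 120 ng/ml for 48 h), and the sample records also give 15% serum and 10% WEHI-3 supplement. Cells were then starved of serum for 16 h and stimulated for 4 h with TGF-β1 at 10 ng/ml, with BMP4 at 50 ng/ml, or not at all. Each of the 6 groups holds 3 libraries numbered 1 to 3. The labels do not say that these came from separate animals, so a p-value here measures only how far these libraries differ among themselves, and that spread may be technical.

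Mitochondrial DNA is copied into long RNAs from both strands, and tRNAs lie between most of the mRNAs and rRNAs, so that cutting out the tRNAs frees the others. The mRNAs encode core subunits of complexes I, III and IV and of ATP synthase, and complex II is built from nuclear genes alone. mt-Rnr1 and mt-Rnr2 are the small and large subunit RNAs of the mitochondrial ribosome, and Lars2 encodes the enzyme that loads leucine onto the mitochondrial leucine tRNAs, mt-Tl1 and mt-Tl2. Most mitochondrial mRNAs and both rRNAs carry short poly(A) tails. The libraries were made from RNA caught on oligo(dT) beads and cut to fragments longer than a tRNA. Levels of the tRNA genes in such libraries are therefore reads that overlap a tRNA gene and need not be mature tRNA.

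Both leucine tRNA genes are shown because Lars2 acts on their products. They come from the GENCODE vM21 transcripts (GRCm38), are written 5′ to 3′ on the plus strand, and have the anticodon in capitals. mt-Tl1 is at chrM:2676-2750 and mt-Tl2 at chrM:11671-11741.
mt-Tl1: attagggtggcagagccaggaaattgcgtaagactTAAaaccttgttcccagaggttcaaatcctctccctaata
mt-Tl2: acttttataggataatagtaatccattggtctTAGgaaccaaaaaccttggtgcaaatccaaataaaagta

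The next sequences are shown because stretches of the mitochondrial genome also lie in nuclear chromosomes, and reads from a stretch that is the same in both cannot be assigned by sequence. The first 60 bases of mt-Co2, a subunit gene of complex IV, occupy chrM:7013-7072 on the plus strand, and the annotated pseudogene Gm28661 carries the same 60 bases at chr1:24615506-24615565 on the minus strand (GRCm38, GENCODE vM21). For mt-Cytb, the complex III subunit, bases chrM:14146-14205 are set against the pseudogene Gm11410 at chr4:80003990-80004049, both on the plus strand, with the 3 bases that differ in capitals, as a copy that reads can be told from.
mt-Co2: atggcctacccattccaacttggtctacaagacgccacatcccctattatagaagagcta
Gm28661: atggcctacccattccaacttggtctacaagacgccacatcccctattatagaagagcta
mt-Cytb: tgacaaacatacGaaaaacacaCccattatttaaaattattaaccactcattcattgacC
Gm11410: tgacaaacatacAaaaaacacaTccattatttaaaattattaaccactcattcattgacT

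Over their whole length, 5 mitochondrial mRNA genes had a near-complete copy among annotated nuclear genes. An alignment at 99% identity or more covered 99.56% of mt-Co2, 99.56% of mt-Atp6, 99.87% of mt-Co3, 99.14% of mt-Nd3 and 98.99% of mt-Nd4l. It covered 63.57% of mt-Nd4, 31.26% of mt-Co1 and 21.08% of mt-Atp8. No such alignment was found for mt-Nd1, mt-Nd2, mt-Nd5, mt-Nd6, mt-Cytb, mt-Rnr1 or mt-Rnr2. Only annotated nuclear genes were searched, and unannotated copies were not analysed here.

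Depth and labels were checked first. Total counts ran from 15153296 to 24639163 per library. All 10 macrophage markers had a median above 1 CPM (TMM-scaled counts, relative to the size of each library) in every group, and Csf1r, Adgre1 and Cd68 ranged over 4070 to 4980, 3430 to 4900 and 821 to 1200 CPM. The 9 neutrophil and granulocyte markers summed to 62.43 to 134.7 CPM in knockout-labelled and 97.45 to 163.9 CPM in floxed-labelled libraries, and stromal markers to at most 15.23 CPM. Smad1 was at 19.4 to 26.8 CPM in the libraries labelled knockout and 22.1 to 31 CPM in those labelled floxed; gene counts do not show whether the floxed exon was lost. Lyz2, in which LyzM-Cre sits, was at 13400 to 17800 CPM in libraries labelled knockout and 37.6 to 9860 CPM in libraries labelled floxed, with the 3 floxed-labelled libraries numbered 1 at 37.61 to 74.26 CPM. An inserted Cre interrupts its copy of Lyz2, so these levels go against the labels, and the floxed-labelled libraries mix different Lyz2 states. Every difference between the labels is therefore one between libraries as labelled, and whether it is one between Smad1 genotypes cannot be told from these counts. The BMP4-treated knockout-labelled library numbered 1 stood apart in rRNA. These are bulk samples, in which fewer cells of a type and less RNA per cell cannot be told apart.

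Mitochondrial genes held 1.019% to 1.255% of all counts, with a median of 1.129%, and the mRNAs made up nearly all of that. The 13 mRNAs took 0.9551% to 1.187% of counts, the 2 rRNAs 0.03938% to 0.109% and the 22 tRNA genes 0.003823% to 0.005733%. The share of the mRNAs varied 1.24-fold between the lowest and the highest library and that of the rRNAs 2.77-fold. mt-Co1 alone held 57.68% to 59.65% of the mitochondrial mRNA counts in every library.

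Per length, in the authors' FPKM averaged over the 18 libraries, the order of the mRNAs was far from even. mt-Co1, the catalytic core of complex IV, was first at 4052 ± 249.2 (SD), ranging from 3625 to 4498. mt-Cytb followed at 1143 ± 67.47, and the complex I genes mt-Nd1 at 834.5 ± 58.97, mt-Nd5 at 599.6 ± 43.45, mt-Nd6 at 511.7 ± 44.29, mt-Nd2 at 360.6 ± 22.89 and mt-Nd4 at 343.9 ± 29.34. The ranges of mt-Co1, mt-Cytb, mt-Nd1 and mt-Nd5 did not overlap, whereas that of mt-Nd5 (534.7 to 689.2) overlapped that of mt-Nd6 (427.5 to 576.7). The ranges of mt-Nd2 (319.8 to 397.9) and mt-Nd4 (297.5 to 388.2) overlapped too.

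The 5 mRNA genes with a near-complete nuclear copy reached at most 55.11 FPKM in any library, with means of 35.04 for mt-Co2, 29.51 for mt-Co3, 27.43 for mt-Atp6, 21.78 for mt-Nd3 and 9.417 for mt-Nd4l. mt-Atp8, the short ATP synthase subunit gene, was at 5.385. Counts of Gm28661, the copy of mt-Co2, were of like size, 26.63 to 31 CPM as group means beside 21.14 to 26.74 CPM for mt-Co2, and Gm28437, the copy of mt-Co3, had 16.82 to 22.03 beside 20.4 to 27.24 CPM. Gm10925, the copy of mt-Atp6, had 22.68 to 27.84 beside 16.8 to 20.74 CPM, and Gm10222, the copy of mt-Nd4l, 1.81 to 2.577 beside 2.208 to 3.332 CPM. Gm28438, the copy of mt-Nd3, was lower, at 0.8928 to 1.404 beside 5.779 to 9.822 CPM. How the authors' counting treated reads that match in several places is not given in the sources used here. The levels of these 5 genes, and less so of mt-Nd4 and mt-Co1, are therefore uncertain. The level of mt-Atp8 is uncertain too. It lies between mt-Co2 and mt-Atp6 and overlaps mt-Atp6, and unannotated sequence between their nuclear copies was not searched. The same holds for the tRNA genes mt-Tk, mt-Tg and mt-Tr, which lie between genes with such copies.

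**Figure D1:**
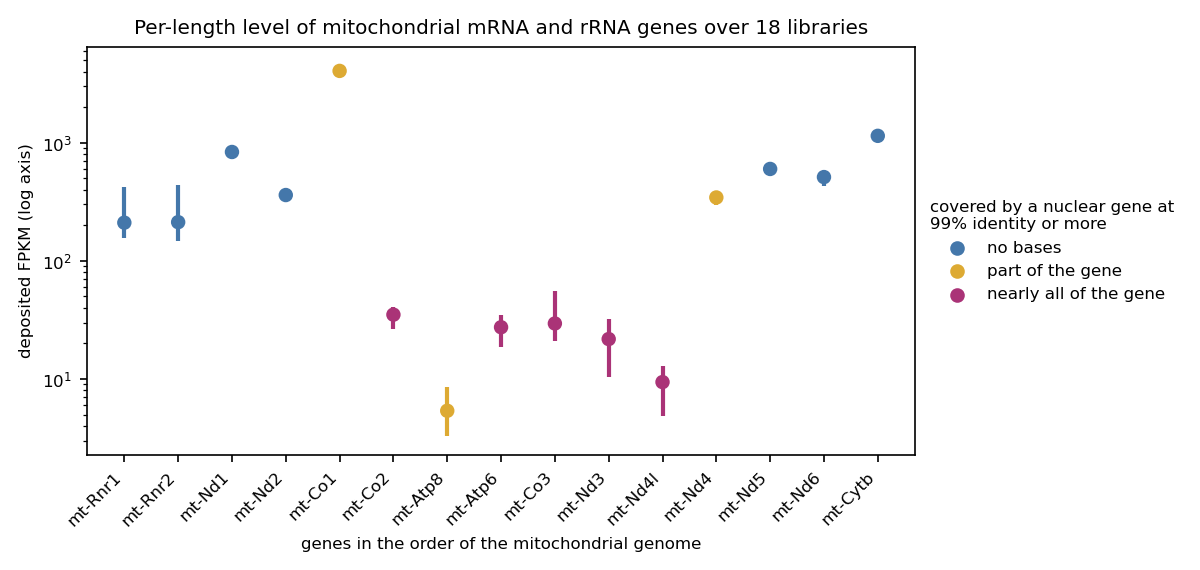
Per-length level (FPKM, log scale) of the 13 mitochondrial mRNA genes and 2 rRNA genes over the 18 libraries, coloured by how much of the gene an annotated nuclear gene covers at 99% identity or more. The 5 genes with a near-complete copy have means of 9.417 to 35.04 FPKM, and mt-Co1 leads at 4052.

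The rRNA genes were alike per length, mt-Rnr1 at 210.5 ± 59.96 FPKM and mt-Rnr2 at 212.6 ± 65.42, with overlapping ranges (SD over 18 libraries). In CPM, the ratio of mt-Rnr2 to mt-Rnr1 kept between 1.51 and 1.792. The sum of both rRNAs was 3.689 to 10.38 counts per 100 counts of mitochondrial mRNA, and the top value belonged to the BMP4-treated knockout-labelled library 1.

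Of the 22 tRNA genes, 10 passed the filter (mt-Tl1, mt-Tw, mt-Tn, mt-Tc, mt-Ty, mt-Tg, mt-Th, mt-Ts2, mt-Tl2 and mt-Tp) and 12 did not (mt-Tf, mt-Tv, mt-Ti, mt-Tq, mt-Tm, mt-Ta, mt-Ts1, mt-Td, mt-Tk, mt-Tr, mt-Te and mt-Tt). mt-Tf and mt-Td had 0 counts in every library, which allows at most 3 counts per library. The most abundant were mt-Tp, the proline tRNA gene, at 255 ± 39.24 FPKM, mt-Tn, for asparagine, at 201 ± 37.99, and mt-Tc, for cysteine, at 137.8 ± 29.71. Each of these 3 had a median between 9.588 and 16.92 CPM, and the other tested tRNA genes were at or below 3.278 CPM in every library, the top value being that of mt-Tl2.

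In floxed-labelled cells TGF-β1 gave a median log2 fold change of 0.08 over the 13 mitochondrial mRNAs and of 0.22 over both rRNAs. None of the 26 tested genes was called at an adjusted p under 0.05 in edgeR's quasi-likelihood test, where 33% of all tested genes were called. Of the 26, 2 had an unadjusted p under 0.05 (41.2% of all genes), and DESeq2 called 0. These were mt-Nd3, a complex I subunit gene, with a log2 fold change of 0.54 (SE 0.234, adjusted p 0.0857), and mt-Tl2, with 0.92 (SE 0.403, adjusted p 0.0888), and neither gene's groups overlapped, as for 43.9% of all genes. With library number as a block within each label, both passed, mt-Nd3 at 0.57 (SE 0.172, adjusted p 0.00942) and mt-Tl2 at 1.01 (SE 0.343, adjusted p 0.0202), where that fit called 39.5% of all genes. A fit of the compared groups alone also called 2 genes, but these were Lars2 and mt-Rnr2.

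In knockout-labelled cells TGF-β1 came with 4 calls among the 26 genes, while 34.6% of all tested genes were called. mt-Tl1 was at 1.51, 1.52 and 1.95 CPM untreated and at 0.801, 0.871 and 0.959 CPM with TGF-β1, which are 25, 25 and 31 counts against 12, 16 and 18. All 3 treated libraries lay below all 3 untreated ones, a separation in either direction that 44.9% of all genes showed, and mt-Tl1 fell by 0.91 on the log2 scale (SE 0.262, adjusted p 0.0105). mt-Tn was at 10.02, 10.12 and 12.24 CPM untreated and 16.42, 14.36 and 15.34 CPM with TGF-β1. It was higher in every treated library, with a log2 fold change of 0.51 (SE 0.158, adjusted p 0.0169).

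mt-Tc rose likewise but with overlap, from 5.556, 6.034 and 9.732 CPM to 10.75, 9.14 and 11.4 CPM, where untreated library 3 exceeded treated library 2 (log2 fold change 0.55, SE 0.191, adjusted p 0.0299). mt-Nd4, whose protein is part of the proton-pumping arm of complex I, was at 460.3, 447.3 and 489.4 CPM untreated and 420.8, 413.4 and 421.5 CPM with TGF-β1. The groups did not overlap, and the fall was small, 0.15 on the log2 scale (SE 0.053, adjusted p 0.0299). The block within label, which called 40.3% of all genes, kept these 4 calls and added falls of mt-Co2 (-0.24, SE 0.0889, adjusted p 0.0296) and mt-Nd5 (-0.12, SE 0.0449, adjusted p 0.039).

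Each of the 4 calls depended on single libraries. mt-Tl1 lost its call without untreated library 3 (adjusted p 0.0521). mt-Tn lost it without untreated library 1, untreated library 2 or treated library 1 (up to 0.0623), and mt-Tc without any of these or treated library 3 (up to 0.142). mt-Nd4 kept it only without untreated library 2 (otherwise up to 0.137). Whether the response differed between the labels was tested as an interaction, and 0 of the 26 genes were called there by edgeR and 0 by DESeq2, where edgeR called 0.00681% of all genes. Of the 26, 8 had an unadjusted p under 0.05 in that test (3.36% of all genes), led by mt-Tl1 at -1.25 (SE 0.352, adjusted p 1).

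BMP4 gave no call among the 26 genes in floxed-labelled cells (0% of all genes called) by edgeR or DESeq2, with 2 at an unadjusted p under 0.05 (7.51% of all genes), mt-Tc and mt-Co1. mt-Rnr1 was at 185, 171.9 and 149.3 CPM untreated and 226.6, 192.6 and 223.3 CPM with BMP4, a log2 fold change of 0.34 (SE 0.213, adjusted p 0.747). Its groups did not overlap, as for 13.2% of all genes, and the difference missed the threshold. mt-Rnr2 gave 0.39 (SE 0.218, adjusted p 0.706), again without overlap.

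In knockout-labelled cells BMP4 also gave no call by edgeR or DESeq2 (edgeR called 0.572% of all genes), with 4 of the 26 at an unadjusted p under 0.05 (12.2% of all genes). mt-Rnr1 was at 151.6, 197 and 154.2 CPM untreated and 404.6, 230.2 and 157.8 CPM with BMP4, and mt-Rnr2 at 232.9, 302.3 and 249.5 against 699.6, 388 and 270.1. Library 1 of the treated group was far above the rest and library 3 lay among the untreated values. The log2 fold changes were 0.66 (SE 0.214, adjusted p 0.186) for mt-Rnr1 and 0.79 (SE 0.22, adjusted p 0.108) for mt-Rnr2. Without treated library 1 they were 0.22 and 0.34, and without treated library 3 both were called, at 0.93 (adjusted p 0.0389) and 1.06 (adjusted p 0.0387).

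With library number as a block within label, 3 genes were called higher with BMP4 in knockout-labelled cells, where that fit called 3.21% of all genes. These were mt-Rnr2 (log2 fold change 0.75, SE 0.183, adjusted p 0.0217), mt-Rnr1 (0.61, SE 0.17, adjusted p 0.0452) and mt-Tn (0.50, SE 0.128, adjusted p 0.0284). mt-Tn had 14.41 to 16.96 CPM with BMP4 against 10.02 to 12.24 CPM untreated, with no overlap (15.7% of all genes). The BMP4 response was not called as different between the labels for any of the 26 genes (0% of all genes called by edgeR), with 0 of the 26 called by DESeq2 and 0 at an unadjusted p under 0.05 (5.71% of all genes).

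**Figure D2:**
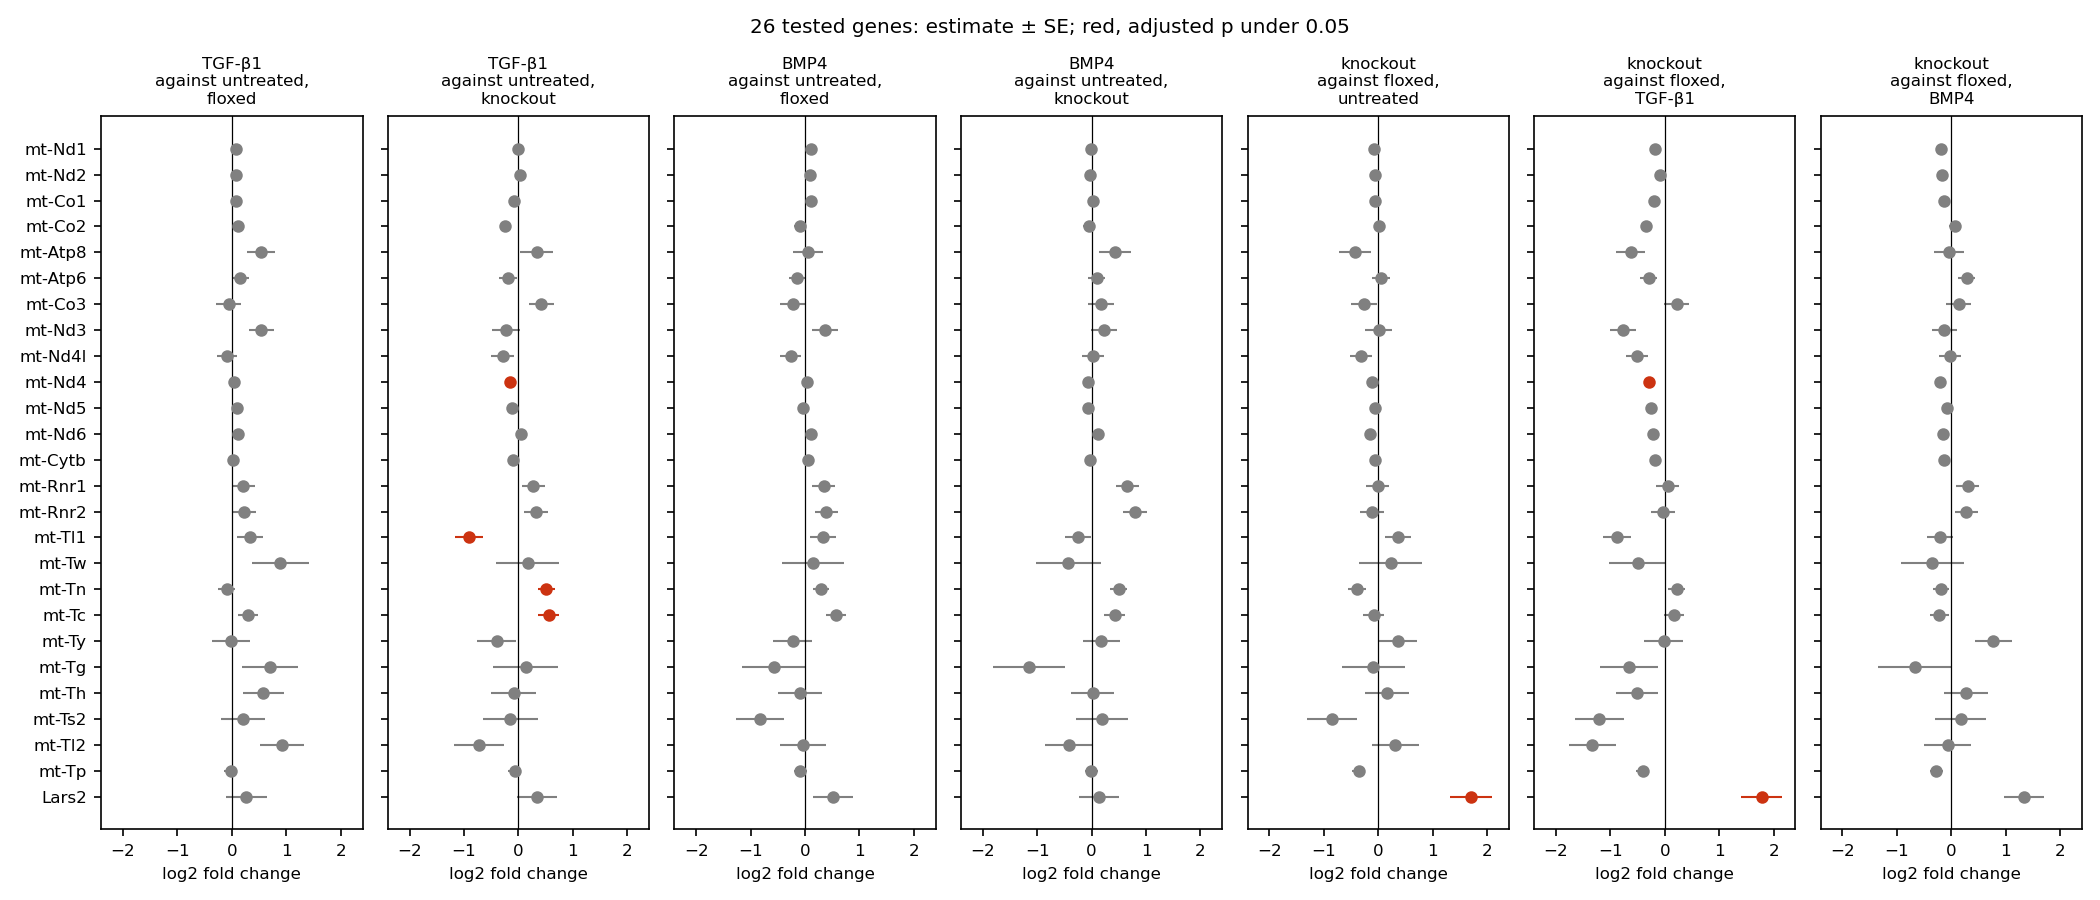
Log2 fold change with its SE for the 26 tested genes in each comparison between groups, with genes at an adjusted p under 0.05 in red. Lars2 lies at 1.71 and 1.78 in knockout-labelled against floxed-labelled cells untreated and with TGF-β1, and most mitochondrial genes lie near zero.

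Lars2 had the largest difference between the labels among the 26 tested genes in untreated cells and with TGF-β1. In untreated cells, where 20.5% of all genes had no overlap, it was at 1254, 1280 and 1326 CPM in knockout-labelled and 389.7, 407.6 and 383.4 CPM in floxed-labelled libraries. The lowest knockout-labelled value lay far above the highest floxed-labelled one, 3.27-fold higher by means (log2 1.71, SE 0.381, adjusted p 0.0287), while 2.39% of all genes were called. With TGF-β1, Lars2 was at 1635, 1564 and 1671 CPM against 406.4, 536.9 and 475.5 CPM. This difference was of like size (log2 1.78, SE 0.381, adjusted p 0.0468), where 0.388% of all genes were called. With BMP4, Lars2 was at 2868, 896.7 and 490.4 CPM against 576.4, 420.6 and 689.4 CPM.

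The spread of Lars2 over the BMP4-treated knockout-labelled libraries, from the highest value of all to within the floxed-labelled range, made the groups overlap. That difference was not called (log2 1.33, SE 0.376, adjusted p 0.354), where 0.0272% of all genes were called; it was called without library 3 (1.74, adjusted p 0.0281) and was 0.30 without library 1. In untreated cells the log2 difference stayed within 1.68 to 1.72 when single libraries were left out, but it kept its call only without knockout-labelled library 2 (adjusted p up to 0.105 otherwise). With TGF-β1 it stayed within 1.68 to 1.89 and lost its call without any 1 of the 6 libraries (adjusted p 0.094 to 0.176). These p-values rest on a spread shared by all groups, also those with BMP4. The SD of Lars2 was 1272 CPM in BMP4-treated knockout-labelled libraries. In knockout-labelled and floxed-labelled libraries it was 36.27 and 12.52 CPM untreated, and 54.03 and 65.29 CPM with TGF-β1. Libraries treated with BMP4 were not among those left out for these 2 comparisons. Fitting only the compared groups called Lars2 higher both untreated and with TGF-β1, where these fits called 0.215% and 0.14% of all genes. With the floxed-labelled libraries numbered 1 (low in Lyz2, as above) left out, the untreated difference was 1.70 (adjusted p 0.122), and that with TGF-β1 was 1.68 (adjusted p 0.215).

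Lars2 was called with neither ligand in the fit over all groups. TGF-β1 gave log2 fold changes of 0.27 (SE 0.372, adjusted p 0.644) in floxed-labelled and 0.34 (SE 0.37, adjusted p 0.537) in knockout-labelled cells. BMP4 gave 0.51 (SE 0.372, adjusted p 0.796) and 0.14 (SE 0.37, adjusted p 0.928), and the second became -0.89 (adjusted p 0.0914) without knockout-labelled library 1 of the BMP4 group. Fitting only the compared groups called Lars2 higher with TGF-β1 under both labels, at 0.26 (SE 0.0846, adjusted p 0.0376) in floxed-labelled and 0.33 (SE 0.0493, adjusted p 0.000393) in knockout-labelled cells, where these fits called 33% and 34% of all genes. With no filter on low counts Lars2 was called with TGF-β1 under both labels and with BMP4 in floxed-labelled cells. The folds were of like size, with SEs of at most 0.0584, and 16%, 16.7% and 0.234% of all genes were called. Between the labels with BMP4 that fit gave Lars2 an SE of 0.059, although its knockout-labelled values ran from 490.4 to 2868 CPM. These SEs therefore do not follow the spread of Lars2 between libraries. Lars, the cytosolic counterpart of Lars2, was at 61.67 CPM in knockout-labelled and 65.79 CPM in floxed-labelled untreated cells (log2 -0.09, SE 0.0646, adjusted p 0.486).

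The mitochondrial rRNAs did not separate the labels. Knockout-labelled against floxed-labelled cells gave log2 differences of -0.010, 0.056 and 0.30 for mt-Rnr1 and of -0.12, -0.027 and 0.28 for mt-Rnr2, untreated, with TGF-β1 and with BMP4. None was called (lowest adjusted p 0.775 for mt-Rnr1 and 0.811 for mt-Rnr2), and the groups overlapped in each.

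**Figure D3:**
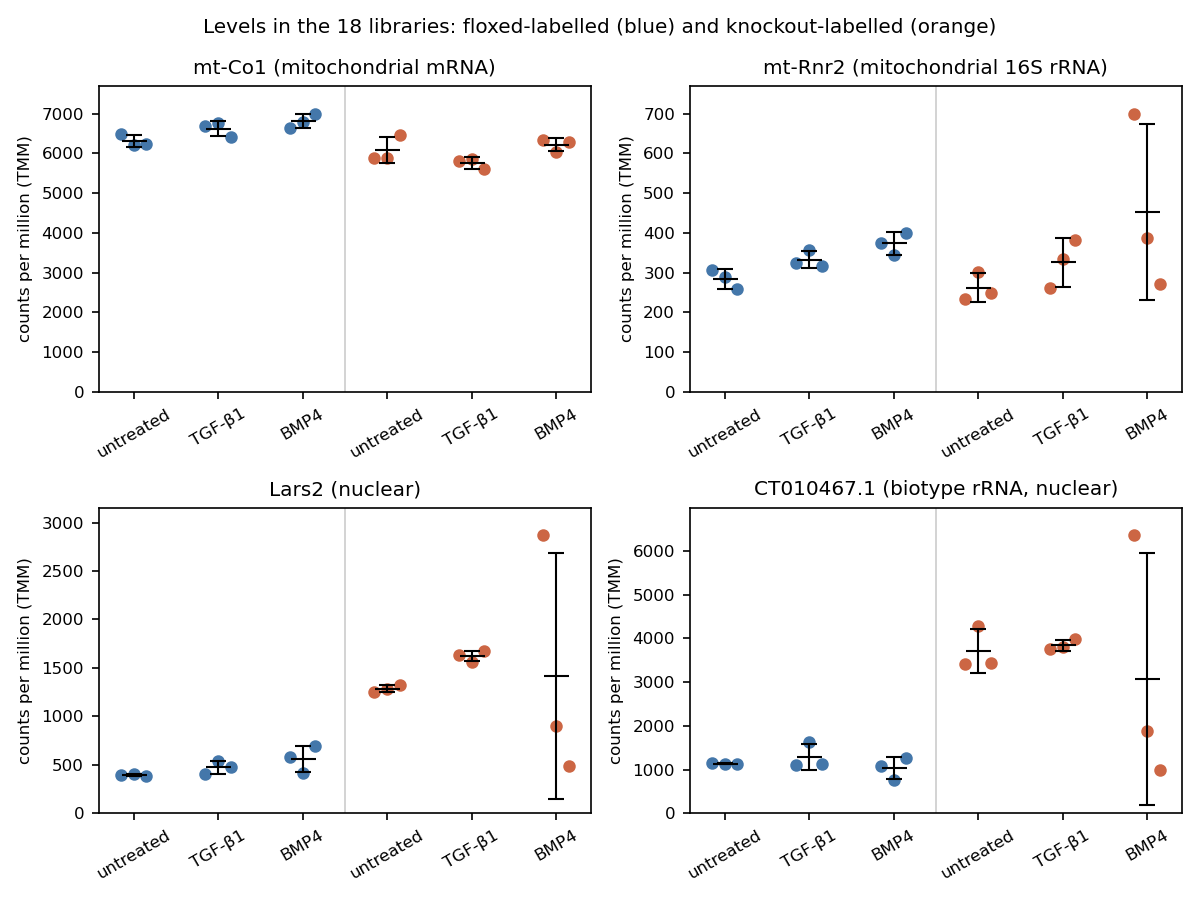
Levels in CPM of mt-Co1, mt-Rnr2, Lars2 and CT010467.1 in each of the 18 libraries by group, floxed-labelled in blue and knockout-labelled in orange. Lars2 in untreated cells is at 1254 to 1326 CPM in knockout-labelled and 383.4 to 407.6 CPM in floxed-labelled libraries, while mt-Rnr2 overlaps between the labels.

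Among the mitochondrial mRNAs, mt-Nd4 was called between the labels with TGF-β1. It was at 420.8, 413.4 and 421.5 CPM in knockout-labelled and 527.7, 502.1 and 510.8 CPM in floxed-labelled cells, without overlap (log2 -0.29, SE 0.0529, adjusted p 0.0266). It lost its call when any 1 of the 6 libraries was left out (adjusted p 0.0528 to 0.107). In untreated cells mt-Nd4 gave -0.11 (SE 0.0529, adjusted p 0.298) and with BMP4 -0.20 (SE 0.0529, adjusted p 0.305).

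The other 12 mRNAs missed the threshold with TGF-β1, and 11 of them had differences below zero, from -0.76 for mt-Nd3 (SE 0.241, adjusted p 0.172) to -0.09 for mt-Nd2. mt-Co3 gave 0.22 (SE 0.228, adjusted p 0.761). mt-Co1 was at 5815, 5855 and 5594 CPM in knockout-labelled and 6684, 6765 and 6400 CPM in floxed-labelled cells (log2 -0.20, SE 0.0481, adjusted p 0.0718), and mt-Nd5 at 995, 1064 and 974 against 1261, 1262 and 1107 CPM (-0.26, SE 0.0585, adjusted p 0.0641). mt-Cytb gave -0.19 (SE 0.0492, adjusted p 0.103). These 3 genes had no overlap between the labels, and DESeq2 called all of them lower in addition to mt-Nd4. Of the 13 mRNAs, 12 had a difference below zero, with a median of -0.26, and the groups did not overlap for 10, against 19.2% of all tested genes. Over all genes the median was near zero (-0.000191). With BMP4 the median of the 13 was -0.13 and in untreated cells -0.06, and no mRNA was called in either.

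Leucine tRNA genes were compared between the labels because Lars2 separated them. mt-Tl1 gave log2 0.37 (SE 0.243, adjusted p 0.462) in untreated cells and -0.88 (SE 0.255, adjusted p 0.134) with TGF-β1, and mt-Tl2 gave 0.31 (SE 0.43, adjusted p 0.766) and -1.33 (SE 0.428, adjusted p 0.18). None passed the threshold. With TGF-β1 the groups did not overlap for either gene, at levels of at most 3.278 CPM.

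Whether Lars2 followed the rRNAs was first asked within groups, by adding the log2 CPM of mt-Rnr1 plus mt-Rnr2, centred in each group, to the edgeR model. Lars2 had a slope of 1.55 (log2 of Lars2 per log2 of rRNA, SE 0.195, adjusted p 0.00129), the fourth lowest p of 14684 genes. The slope was called for 6 genes, 0.0409% of those tested, and mt-Rnr1 and mt-Rnr2 themselves were among them by construction. The others were CT010467.1, annotated as an rRNA gene on chromosome 17, with a slope of 1.72 (SE 0.178), Rn7sk, a small nuclear RNA without a poly(A) tail, with 2.98 (SE 0.387), and Gm23935, annotated as a miRNA gene, with 1.57 (SE 0.216). Gm24270, next in order, missed the threshold with 1.64 (SE 0.298, adjusted p 0.0753). No mitochondrial mRNA or tRNA gene had a called slope.

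That slope rested on the BMP4-treated knockout-labelled group. In its library 1 the rRNAs were at 1104 CPM together, Lars2 at 2868 CPM, CT010467.1 at 6362 CPM and Rn7sk at 56.74 CPM, the last against at most 14.38 CPM in the other libraries. Without this library the slope of Lars2 was 0.80 (SE 0.255, adjusted p 0.303), and without library 3 of the same group it was 1.28 (SE 0.273, adjusted p 0.718). Leaving out any other library gave slopes of up to 1.71 that stayed past the threshold.

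Over all 18 libraries, in log2 CPM, Lars2 and the rRNA sum had Pearson's r 0.384 (permutation p 0.111, adjusted 0.148). Spearman's rho was 0.294 (permutation p 0.235, adjusted 0.289), and r was 0.111 without the 2 libraries farthest from the median rRNA. Because Lars2 differed between the labels untreated and with TGF-β1, correlations were also taken within each label, a split not planned in advance. Over the 9 floxed-labelled libraries Lars2 and the rRNA sum had Pearson's r 0.852 (exact permutation p 0.00281, adjusted 0.0106) and Spearman's rho 0.883 (exact permutation p 0.00308, adjusted 0.0164), with r 0.822 without the 2 libraries farthest from the median rRNA. Over the 9 knockout-labelled libraries r was 0.582 (exact permutation p 0.121, adjusted 0.149) and rho 0.467 (exact permutation p 0.213, adjusted 0.283), and r fell to 0.214 without the 2 farthest. As deviations from group means over 18 libraries r was 0.887 (exact permutation p within groups 0.00761, adjusted 0.0152) and rho 0.587 (exact permutation p 0.0329, adjusted 0.0658), and r was 0.399 without libraries 1 and 3 of the BMP4-treated knockout-labelled group. Adjustment was over 16 relations, and libraries of 1 label with the same number deviated together, so the points are not fully independent. Permutations within a label ignored treatment, so these r hold shifts between treatments as well as differences between libraries. Floxed-labelled group means rose in the same order, untreated, TGF-β1 and BMP4, for Lars2 (393.6, 472.9 and 562.2 CPM) and the rRNA sum (453, 527 and 587.4 CPM).

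Lars2 per count of rRNA was higher in every knockout-labelled than in any floxed-labelled library. The ratio of Lars2 to mt-Rnr1 plus mt-Rnr2 was 1.15 to 3.78 in knockout-labelled and 0.783 to 1.11 in floxed-labelled libraries. Its geometric mean was 2.48 against 0.901, 2.75-fold higher, with an exact permutation p of 0.00025 within treatments, two-sided, the smallest that the 8000 orders can give. That test takes the libraries as independent, although those of 1 label and number deviated together. With whole sets of 1 label and number exchanged, a test chosen after seeing the data, the exact permutation p was 0.1, the smallest that 20 orders can give.

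CT010467.1, singled out by its slope, was compared with Lars2 next, a comparison chosen after seeing these values. CT010467.1 was at 3420, 4295 and 3442 CPM in untreated knockout-labelled and 1150, 1137 and 1122 CPM in untreated floxed-labelled libraries. It was higher without overlap (log2 1.71, SE 0.408, adjusted p 0.0354, between 0.0535 and 0.114 with any 1 of the 6 libraries left out), as Lars2 was. With TGF-β1 it was at 3749, 3795 and 3992 against 1101, 1623 and 1122 CPM (log2 1.58, SE 0.407, adjusted p 0.0961). The edgeR fit of the compared groups alone called it higher there (log2 1.59, SE 0.127, adjusted p 0.000644), where 0.14% of all genes were called. With BMP4 it was at 6362, 1872 and 985.4 against 1088, 763.2 and 1258 CPM (log2 1.57, SE 0.407, adjusted p 0.305), so that the same knockout-labelled libraries were high and low as for Lars2. Their SD of 2882 CPM entered the spread that the fit over all groups shares between these comparisons.

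The ratio of Lars2 to CT010467.1 was 0.298 to 0.498 in knockout-labelled and 0.331 to 0.551 in floxed-labelled libraries. Over all treatments the geometric means were 0.412 in both, a 0.999-fold difference (exact permutation p 0.98425, two-sided). The ratio varied with treatment, however. In knockout-labelled against floxed-labelled libraries it was 0.2981 to 0.3853 against 0.3389 to 0.3584 untreated and 0.4122 to 0.4362 against 0.3308 to 0.424 with TGF-β1. With BMP4 it was 0.4508 to 0.4977 against 0.5299 to 0.5511, without overlap between the labels and above the untreated values under both. These differences by treatment were not tested. On CT010467.1 the slope of Lars2 within groups was 0.91 (SE 0.0455, adjusted p 8.57e-10), rank 3 among all genes by p, and 9 genes were called (0.0613%). It stayed at 0.80 to 0.93 with any library left out. With both in 1 model, Lars2 had a slope of 1.02 on CT010467.1 (SE 0.118, adjusted p 0.000746) and -0.22 on the mitochondrial rRNAs (SE 0.222, adjusted p 0.936), where 0.0204% and 0.0136% of all genes were called.

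The relation with CT010467.1 was close over the 9 knockout-labelled libraries, with r 0.961 (exact permutation p 0.000615, adjusted 0.00492) and rho 0.817 (exact permutation p 0.0108, adjusted 0.0287), and r 0.881 without the 2 farthest libraries. Over the 9 floxed-labelled libraries it was r 0.398 (exact permutation p 0.29, adjusted 0.29) and rho 0.117 (exact permutation p 0.776, adjusted 0.776), with r 0.542 without the 2 farthest. Whether these relations differ between the labels was not tested.

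**Figure D4:**
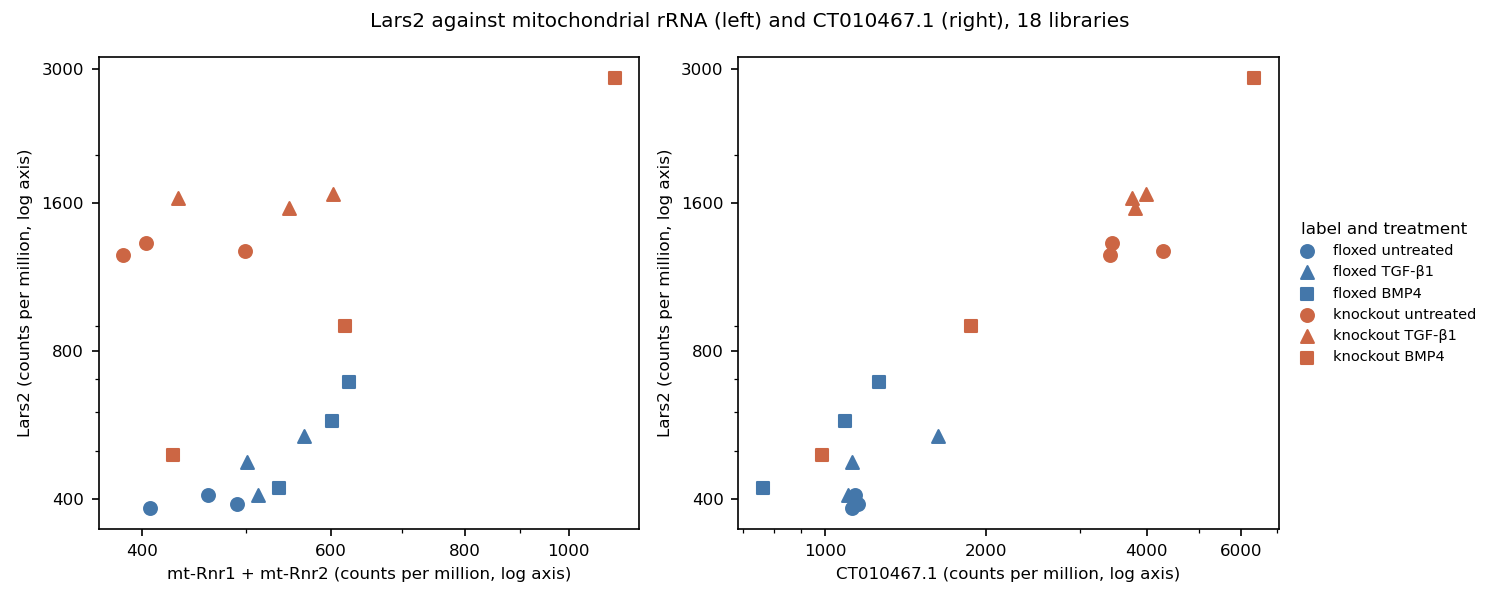
Lars2 (CPM) against the sum of mt-Rnr1 and mt-Rnr2 (CPM, left) and against CT010467.1 (CPM, right), with 1 point per library and colour and marker for label and treatment. On the left the ratios of 0.783 to 1.11 (floxed-labelled) and 1.15 to 3.78 (knockout-labelled) do not overlap. On the right those of 0.331 to 0.551 and 0.298 to 0.498 overlap.

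Sequence shared between Lars2 and these RNAs was searched, since reads from a shared stretch could be counted in both. Lars2 (ENSMUSG00000035202) lies at chr9:123366927-123462666 on the plus strand of GRCm38, and its main transcript has 3894 bases in 21 exons. It gave no alignment with mt-Rnr1, mt-Rnr2, CT010467.1, Rn7sk, Gm23935 or Gm24270, nor with Gm26917, which was searched as well. Its 3′ UTR matched Gm15564, annotated as an antisense gene on chromosome 16, over 72 bases at 98.61% identity, and AA474408 over 97 bases at 94.84%. Only annotated transcripts of these genes were compared. The full cytosolic rRNA sequence was not available, so whether Lars2 or Gm15564 shares sequence with it was not examined. The stretch around the single difference is shown for Lars2 at chr9:123462085-123462114 (plus strand) and Gm15564 at chr16:35981730-35981759 (minus strand), with that base in capitals. Gm23935 (chr16:11144125-11144181, plus strand) and Gm24270 (chr9:56223715-56223771, minus strand) are shown because their annotated sequences are the same 57 bases, so reads within that stretch cannot be assigned by sequence. Reads of 150 bp reach beyond it, and how the authors' counting divided them is not given in the sources used here.
Lars2: ggaacgtgagctgggAttagaccgtcgtga
Gm15564: ggaacgtgagctgggTttagaccgtcgtga
Gm23935: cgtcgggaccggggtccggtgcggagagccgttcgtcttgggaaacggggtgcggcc
Gm24270: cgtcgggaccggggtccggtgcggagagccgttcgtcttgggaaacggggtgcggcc

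Of these 4 genes, Gm15564 and Gm23935 were called higher in knockout-labelled untreated cells. Gm15564 was at 5.193, 4.449 and 6.278 CPM in untreated knockout-labelled and 2.097, 2.121 and 1.275 CPM in untreated floxed-labelled libraries (log2 1.52, SE 0.39, adjusted p 0.0464). With TGF-β1 its difference was 2.24 (SE 0.377, adjusted p 0.0186). Gm23935 had means of 2426 and 717.9 CPM untreated (log2 1.76, SE 0.395, adjusted p 0.0287), while Gm24270, at 26.74 and 9.351 CPM, missed the threshold (log2 1.52, SE 0.452, adjusted p 0.0788). With BMP4 Gm23935 and Gm24270 overlapped between the labels. Gm15564 did not, at 3.985 to 12.13 CPM in knockout-labelled and 1.108 to 3.207 CPM in floxed-labelled libraries, a separation that 13.2% of all genes showed. AA474408 stayed at 0.29 to 1.57 CPM in all libraries and overlapped between the labels at each treatment. Means of Gm26917 lay nearer to each other than those of Gm23935, at 81.16 CPM in knockout-labelled and 53.77 CPM in floxed-labelled untreated cells. With TGF-β1 they were 129.8 and 89.97 CPM, and with BMP4 139.3 and 73.24 CPM. Gene counts do not show from which exon of Lars2 its reads came, and the part of the shared 3′ UTR stretch or of the RNA without poly(A) tails in the Lars2 difference was not tested.

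Nuclear genes of the same pathway were read from lists. Of 77 tested nuclear subunit genes of the respiratory chain and ATP synthase, 14 were called lower and 0 higher in untreated knockout-labelled cells, 18.2% where 1.1% of all genes were called lower. The difference was below zero for 75 of the 77 (49.4% over all genes), with a median of -0.17 log2. The 14 comprised 8 of 36 genes of complex I, 3 of 12 of complex IV, 2 of 16 of ATP synthase, 1 of 9 of complex III and 0 of 4 of complex II. The number fell to 2 without the floxed-labelled libraries numbered 1 and to 0 with the compared groups fitted alone, where calls over all genes fell from 351 to 39 and 29. It rose to 26 with no filter, 20 with DESeq2 and 18 with total count scaling, where 817, 539 and 409 genes were called in all.

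The lowest adjusted p in complex I were those of the accessory subunits Ndufa7 (log2 -0.36, adjusted p 0.0245), Ndufa1 (-0.38, 0.0302), Ndufb10 (-0.30, 0.0312) and Ndufb8 (-0.34, 0.0332). Complex IV gave Cox5b (-0.33, adjusted p 0.00953), Cox6c (-0.25, 0.0427) and Cox7a2 (-0.26, 0.0498). ATP synthase gave Atp5j2 (-0.34, adjusted p 0.00695) and Atp5h (-0.26, 0.0229), and complex III gave Uqcr10 (-0.30, adjusted p 0.0195). With TGF-β1 the labels differed in 1 of the 77, Ndufa12 of complex I (-0.39, adjusted p 0.0421), 1.3% where 0.252% of all genes were called lower. The difference with TGF-β1 was below zero for 73 of the 77, with a median of -0.14, and 40 had an unadjusted p under 0.05 (12.5% of all genes). DESeq2 called 5 lower (1.29% of all genes were called in either direction) and the fit with no filter 8 (1.34%). With RLE scaling (0.204%), scaling without chromosome MT (0.3%), the compared groups alone (0.14%) or 15 libraries (0.0133%), 0 were called. With BMP4 the labels differed in 0 by edgeR (0.0272% of all genes called), with 1 called by DESeq2 (0.232%) and 17 at an unadjusted p under 0.05 (7.91% of all genes).

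TGF-β1 gave few calls among these genes, where 33% of all genes were called in floxed-labelled and 34.6% in knockout-labelled cells. In floxed-labelled cells 2 of 77 rose, Sdhb, the iron-sulphur subunit of complex II (log2 0.38, SE 0.0534, adjusted p 1.1e-05), and Ndufv1 of complex I (0.26, SE 0.0687, adjusted p 0.0061). In knockout-labelled cells 4 rose, again with Sdhb (0.42, SE 0.054, adjusted p 3.6e-06), and 1 fell, Atpif1, which encodes an inhibitor of ATP synthase (-0.16, adjusted p 0.0447). BMP4 raised Atp5j2 in knockout-labelled cells (0.28, adjusted p 0.0338) and called no other gene of the nuclear mitochondrial lists. Over all genes it called only 0.572% in knockout-labelled and 0% in floxed-labelled cells, so few calls in these lists are not particular to them.

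Among the genes that copy, transcribe and process mitochondrial nucleic acids, Polg had the lowest adjusted p with TGF-β1. Polg, the catalytic subunit of the mitochondrial DNA polymerase, went from 56.24 ± 3.894 to 106.7 ± 7.428 CPM in floxed-labelled cells (SD, n = 3; log2 0.93, SE 0.0567, adjusted p 1.26e-10). In knockout-labelled cells it went from 58.17 ± 1.423 to 118.4 ± 2.793 CPM (log2 1.02, SE 0.0575, adjusted p 3.79e-11). Its accessory subunit gene Polg2 fell in both, by 0.44 and 0.30 on the log2 scale (adjusted p 0.00249 and 0.0406), as did Ptcd2 (-0.38 and -0.29, adjusted p 0.000661 and 0.00717). Of 38 tested genes of this list, 2 rose and 2 fell in floxed-labelled and 9 rose and 2 fell in knockout-labelled cells. Tfb2m, a factor of mitochondrial transcription start, rose in both (0.30 and 0.28, adjusted p 0.0108 and 0.0209). Grsf1, a mitochondrial RNA-binding protein gene (0.27, adjusted p 0.00339), and Trmt10c, a subunit gene of mitochondrial RNase P (0.39, adjusted p 0.00855), were called in knockout-labelled cells.

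Among 9 tested regulators of mitochondrial biogenesis, 3 rose and 1 fell in floxed-labelled cells and 4 rose and 2 fell in knockout-labelled cells. Pprc1, a coactivator of the PGC-1 family, rose by log2 0.79 and 0.62 (adjusted p 7.64e-07 and 1.85e-05) and Myc by 1.13 and 0.88 (adjusted p 4.34e-06 and 0.000128). Nfe2l2 fell by 0.29 in both (-0.29, adjusted p 5.52e-05 and 6.19e-05). Of 76 tested mitochondrial ribosomal protein genes, 7 rose and 3 fell in floxed-labelled and 12 rose and 2 fell in knockout-labelled cells, with Mrps2 higher (0.39 and 0.33, adjusted p 0.00061 and 0.00279) and Mrpl45 lower (-0.30 and -0.23, adjusted p 9.44e-05 and 0.00185) in both. Of 22 tRNA synthetase and related genes, 2 rose in floxed-labelled cells, and 2 rose and 1 fell in knockout-labelled cells. Tars2, the mitochondrial threonyl-tRNA synthetase gene, rose in floxed-labelled cells (0.19, adjusted p 0.0476), and its tyrosyl counterpart Yars2 rose in knockout-labelled cells (0.52, adjusted p 0.00413). Except among the biogenesis regulators, with 4 of 9 and 6 of 9, the share called in each of these lists lay below the 33% and 34.6% of all genes called with TGF-β1. With library number as a block within label, TGF-β1 called 4 of 77 respiratory chain genes in floxed-labelled and 10 of 77 in knockout-labelled cells, 8 of 38 transcription and processing genes in floxed-labelled cells, and 5 of 22 synthetase genes under each label, all lower shares than the 39.5% and 40.3% of all genes. BMP4 called 2 of the 38 transcription and processing genes in knockout-labelled cells with that block, where 3.21% of all genes were called.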

How the data were processed

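RNA from 18 libraries was sequenced as paired reads of 150 bp. Per the submitters' processing notes, the tools were TopHat2 2.0.9, HTSeq 0.6.1 and Cufflinks 2.1.1 and the build mm10 (GRCm38.p6), named there without a role or order. The count columns hold whole reads for each gene, per the file headers, and entered the tests as deposited. The deposited FPKM values are the authors' per-length scaling of them and were used for levels between genes. Strand of counting is not given in the sources used here, so overlapping mitochondrial genes on opposite strands are uncertain. 78 further columns of per-sample values were not used.

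Tests ran in edgeR 4.0.16 (R 4.3.3): filterByExpr at a minimum count of 10, TMM factors of 0.978 to 1.02, and a quasi-likelihood F test with a mean for each group of 3. It had 12 residual degrees of freedom (6.41 prior) and a biological coefficient of variation of 8.86%. All groups shared 1 estimate of each gene's spread, so a wide spread in 1 group raised the SE in every comparison. "Adjusted p" is the two-sided p of this test after the Benjamini-Hochberg procedure across 14684 genes, called under 0.05. Slopes add 1 covariate to that model. No library repeated another of its group, since chi-square over genes divided by its degrees of freedom was 3.694 to 28.65 for every such pair. A floor of 3 counts covers counting error only. Nuclear copies were searched with blastn 2.17.0 in GENCODE vM21 transcripts, whose build is that of the files. Correlations used scipy 1.17.1, with exact permutation where fewer than 10 libraries entered and 100000 permutations over all 18, except that deviations from group means were permuted exactly within groups.

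Library numbers paired the libraries within a label: all 18 pairs with the same label and number correlated over 0.1 in their deviations from group means (0.11 to 0.326), against -0.109 to 0.0687 for the same number under the other label. The pairing comes from the labels' numbers and this check. Such a block within labels cannot be used between the labels. A block on number over all groups was run as an alternative.

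All 38 genes were named. From each list the called genes with the lowest adjusted p were named, at most 4 in each direction, and from the slope test the 5 lowest p beside the rRNAs. The genes, lists and tests were chosen with earlier results of these data known. Some genes taken by the rule are left out of the text. The script's tests were tested on simulated data. Alternatives were RLE and total count scaling, scaling without chromosome MT, no filter (29506 genes), genes averaging 1 CPM or more (12234), DESeq2 1.42.0, the compared groups alone, blocks, mt-Rnr1 or mt-Rnr2 alone, 1 common mean, no floxed-labelled libraries numbered 1 (15031 genes) and each library left out. Models with CT010467.1 and blocks on 15 libraries were chosen after seeing the data. Correlations of Lars2 within each label were not planned in advance.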

Additional observations from a re-analysis of the deposited data

How the results depend on the processing

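Numbers of the 26 tested genes called depended on the setting. With TGF-β1, the label comparison (2 called, 0.388% of all genes) gave 1 with RLE (0.204%), 1 with scaling without chromosome MT (0.3%), 3 with total count scaling (0.443%), 3 with a replicate block over all groups (0.661%), 9 with no filter (1.34%), 5 with DESeq2 (1.29%) and 0 without the floxed-labelled libraries numbered 1 (0.0133%); in untreated cells (1 called) it gave 3 with no filter (2.77%) and 0 without those libraries (0.259%), and with BMP4 (0 called) 3 with no filter (0.973%). TGF-β1 against untreated in floxed-labelled cells (0 called) gave 5 with no filter (16%), 2 with the compared groups alone (33%), 2 with the replicate block within label (39.5%) and 4 with that block on 15 libraries (32.8%). In knockout-labelled cells (4 called) it gave 6 with no filter (16.7%), which kept 2 of the 4 and lost mt-Nd4 (adjusted p 0.146) and mt-Tl1 (0.0578), and 4 with the compared groups alone (34%), which lost mt-Tc (0.0549) and added Lars2. BMP4 against untreated gave 4 with no filter in floxed-labelled cells (0.234%), and in knockout-labelled cells 3 with no filter (0.813%), 3 with the block (3.21%) and 2 with the block on 15 libraries (2.94%); the label difference in the BMP4 response gave 2 with no filter (0.163%). The cause of these shifts was not tested. With no filter, the SE of Lars2 between the labels with BMP4 was 0.059, against 0.376 with the filter. Its SEs there do not follow the spread between libraries. Leaving out single libraries gave 0 to 2 called for TGF-β1 in floxed-labelled and 1 to 3 in knockout-labelled cells, 0 to 0 and 0 to 2 for BMP4, 0 to 2, 0 to 1 and 0 to 1 for the labels untreated, with TGF-β1 and with BMP4, and 0 to 0 for both interactions. The slope of Lars2 on the rRNAs was 0.89 (adjusted p 1) with 1 common mean in place of group means and 0.80 to 1.71 with single libraries left out. Over all 18 libraries the correlation was 0.384 (0.466 with mt-Rnr1 alone, 0.852 within floxed-labelled libraries, 0.887 as deviations, -0.00967 to 0.475 with single libraries left out). Signs turned for Lars2 with BMP4 in knockout-labelled cells, to -0.13 with the block and -0.12 with the block on 15 libraries, with -0.89 to 0.55 over single libraries left out. For mt-Rnr1 between the labels untreated, the value turned to 0.055 on 15 libraries and ranged from -0.15 to 0.053 with single libraries left out, with TGF-β1 from -0.018 to 0.16 and with BMP4 from -0.15 to 0.56; for mt-Rnr2 the ranges were -0.16 to 0.11 with TGF-β1 and -0.19 to 0.54 with BMP4. The block within label changed no call of the 26 genes other than those printed; the block over all groups, whose numbers did not pair across labels, added mt-Nd5 (lower between the labels with TGF-β1) and mt-Co2 (lower with TGF-β1 in knockout-labelled cells). Over all alternatives 401 single-gene values kept their side of the threshold, 45 lost and 27 gained a call, and 12 turned sign. Of the tRNA genes, 12 had counts too low to test, and whether depth or the library method limits them was not tested.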
